A study of Homo sapiens with 2 samples.

Results

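In a culture of Nalm-6, a human line of B-cell precursor acute lymphoblastic leukemia, induced to express the ETV6-RUNX1 fusion, 409 of 2043 cells held almost no IGLL1 messenger RNA, and these IGLL1-low cells are described here. They were chosen by the measured IGLL1 value itself: fewer than 2 IGLL1 UMIs per 10000 UMIs of the cell, a unique molecular identifier (UMI) standing for 1 captured transcript. They were set against 565 IGLL1-high cells of the same library, at 15 or more per 10000, and 1069 cells lay between. The line carried a doxycycline-inducible (Tet-On) construct of either the ETV6-RUNX1 fusion or, in the LUC control, luciferase, and both cultures received 500 ng/ml doxycycline for 24 h. Each construct was sequenced as 1 library on a droplet platform after dead cells had been removed with beads. The series holds 3829 cells past the filters, 1786 of them in the control. The labels do not say whether either culture was a single clone.

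IGLL1 (lambda 5) and VPREB1 are the chains of the surrogate light chain, which pairs with the immunoglobulin heavy chain in pre-B cells to form the pre-B cell receptor. The receptor signals through CD79A and CD79B and checks that a heavy chain gene has been rearranged productively, after which the surrogate light chain is switched off and the light chain genes are rearranged. ETV6-RUNX1 is the most common gene fusion of childhood B-cell precursor leukemia and joins the N-terminal part of the repressor ETV6 to nearly all of RUNX1, including its DNA-binding runt domain.

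The promoters of IGLL1 and of the neighbouring surrogate light chain genes VPREB1 and VPREB3 are shown. IGLL1 chose the cells, VPREB1 and VPREB3 were lower in them, and the fusion keeps the runt domain. Whether the fusion acts through these promoters was not tested. The sequences are the 250 bases before each gene start in RefSeq, read 5′ to 3′ on the gene's strand. The counts were made on hg19, so these coordinates serve for the sequences only. Capitals mark matches on either strand to the RUNX letters TGTGGT or TGCGGT and to the E-box letters CAGGTG, which do not overlap here.
IGLL1 promoter (GRCh38.p14, chr22:23580291-23580540, minus strand): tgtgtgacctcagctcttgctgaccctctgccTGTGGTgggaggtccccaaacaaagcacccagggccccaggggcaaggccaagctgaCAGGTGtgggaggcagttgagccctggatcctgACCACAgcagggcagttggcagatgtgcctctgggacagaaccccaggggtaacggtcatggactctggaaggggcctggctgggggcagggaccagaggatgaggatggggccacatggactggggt
VPREB1 promoter (GRCh38.p14, chr22:22244536-22244785, plus strand): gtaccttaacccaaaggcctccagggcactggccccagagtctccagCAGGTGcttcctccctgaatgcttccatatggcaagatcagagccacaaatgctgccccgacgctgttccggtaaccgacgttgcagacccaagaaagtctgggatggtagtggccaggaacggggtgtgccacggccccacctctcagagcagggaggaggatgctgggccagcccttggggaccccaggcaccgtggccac
VPREB3 promoter (GRCh38.p14, chr22:23754426-23754675, minus strand): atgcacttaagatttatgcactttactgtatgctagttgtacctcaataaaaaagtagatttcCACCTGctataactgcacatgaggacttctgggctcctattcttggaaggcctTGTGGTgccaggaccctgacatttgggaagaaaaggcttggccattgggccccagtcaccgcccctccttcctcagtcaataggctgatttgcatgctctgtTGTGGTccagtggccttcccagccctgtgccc
The IGLL1 promoter held 2 RUNX matches, beginning at -218 and -128 from the gene start, and an E-box match at -161. The VPREB1 promoter held 0 RUNX matches and an E-box match at -203. VPREB3 had RUNX matches at -134 and -32 and an E-box match at -187. Among 35116 RefSeq promoter windows of the same length, 16.3% held a RUNX match and 17.5% the E-box letters. A match describes letters in a window and is not a measured binding site.

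Cells were kept with at least 1000 genes, at most 10% mitochondrial UMIs and at least 8700 UMIs, which left 2043 of 2503 barcodes with 42462461 UMIs in the ETV6-RUNX1 library and 1786 of 2203 barcodes with 42262116 UMIs in the LUC control. The depth filter alone removed 224 and 84 cells. The libraries shared 5 barcode sequences among kept cells and 16 among all barcodes. With 1 library per construct there is no replicate check, and since the cells of 1 library share their culture no statistical test was run. Intervals are 95% and cover counting error only.

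IGLL1-low cells made up 20.02% of the ETV6-RUNX1 library (exact Clopper-Pearson interval 18.3 to 21.8) and 2.52% of the LUC control (1.84 to 3.36), where the same cut found 45 of 1786 cells. Among the 409 cells, 107 held no IGLL1 UMI at all. IGLL1 UMIs per cell ran from 0 through a median of 1 to 5 in IGLL1-low cells and from 14 through 50 to 154 in IGLL1-high cells. Summed over cells, IGLL1 stood at 85.9 UMIs per 1000000 UMIs of the class (counts per 1000000, CPM) in IGLL1-low and 2504 CPM in IGLL1-high cells of the ETV6-RUNX1 library, and at 108 and 2536 CPM in those classes of the control. These values chose the cells and are given as a description. IGLL1 has a relative of similar sequence, IGLL5, and whether reads of the pair were split in counting was not tested. IGLL5 was at 24.3 CPM in IGLL1-low and 23.3 CPM in IGLL1-high cells.

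**Figure D1:**
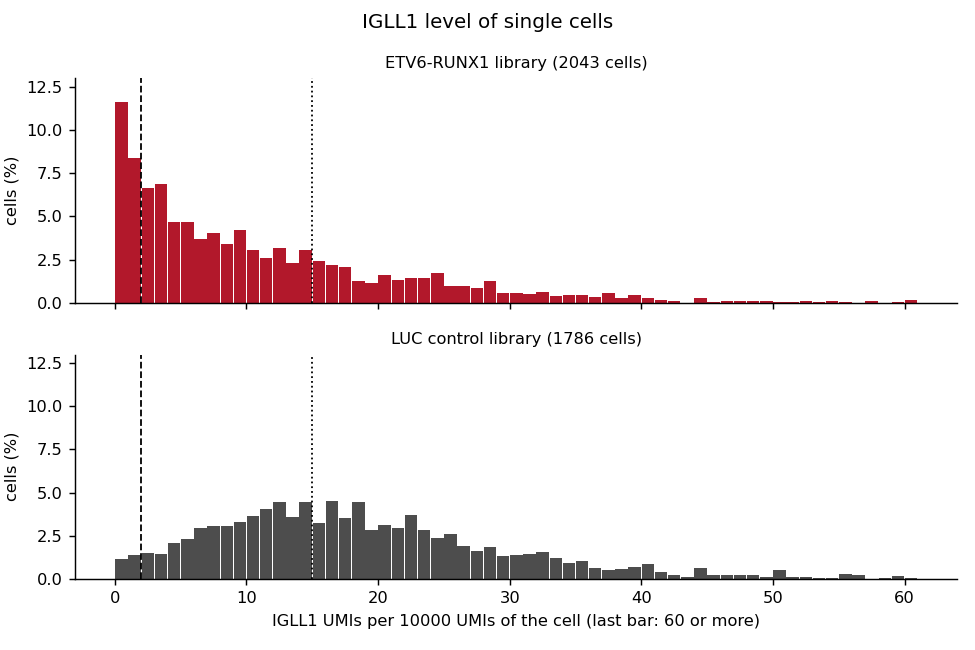
Share of cells (percent, y axis) by IGLL1 UMIs per 10000 UMIs of the cell (x axis) in the ETV6-RUNX1 library (upper) and the LUC control (lower), with the cuts at 2 (dashed) and 15 (dotted). The first bar holds 11.7% of ETV6-RUNX1 cells and 1.12% of control cells, and no gap separates the IGLL1-low cells from the rest of their library.

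The IGLL1 cut ran through a continuous range of cells. The 171 cells just inside it (1 to 2 IGLL1 UMIs per 10000) had 447 CPM of VPREB1, 2.07 of LAT2, 11.55 of PTPRCAP and 16.6 of PLK1, and the 136 cells just outside (2 to 3 per 10000) had 463, 4.07, 18.5 and 11.8 CPM, so PLK1 was the higher one inside. IGLL1-low cells were slightly shallower, with a median of 18295 UMIs and 3149 genes, against 20716 UMIs and 3493 genes in IGLL1-high cells. At a common 8700 UMIs per cell, the median gene number was 2053 in IGLL1-low and 2123 in IGLL1-high cells. Mitochondrial genes took a median of 4.52% and 4.49% of their UMIs, and ribosomal protein genes 45.4% and 42.9%. The share of IGLL1-low cells was 19.6% of ETV6-RUNX1 cells and 2.41% of control cells once every cell was thinned to 8700 UMIs.

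Among 6051 genes at 10 CPM or more in at least 1 of the classes, 68 were at least 1.5-fold higher in IGLL1-low than in IGLL1-high cells with an interval clear of 0 (1.12%), and 251 were at least 1.5-fold lower (4.15%). IGLL1 was left out of these counts. Most genes differed little: 4944 lay within 0.32 on the log2 scale, and the median log2 ratio over all measured genes was -0.06. The lower ones included members of the lists for the surrogate light chain, for pre-B cell receptor signalling and for mitosis, along with RASGRP2 and RAC2. The higher ones included C10orf10, MXI1, MXD4, RAG2 and BCAS4. Called cell-cycle phase, scored on the mitosis and S-phase lists, differed too, with 40.8% of IGLL1-low cells and 78.9% of IGLL1-high cells called G2/M.

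**Figure D2:**
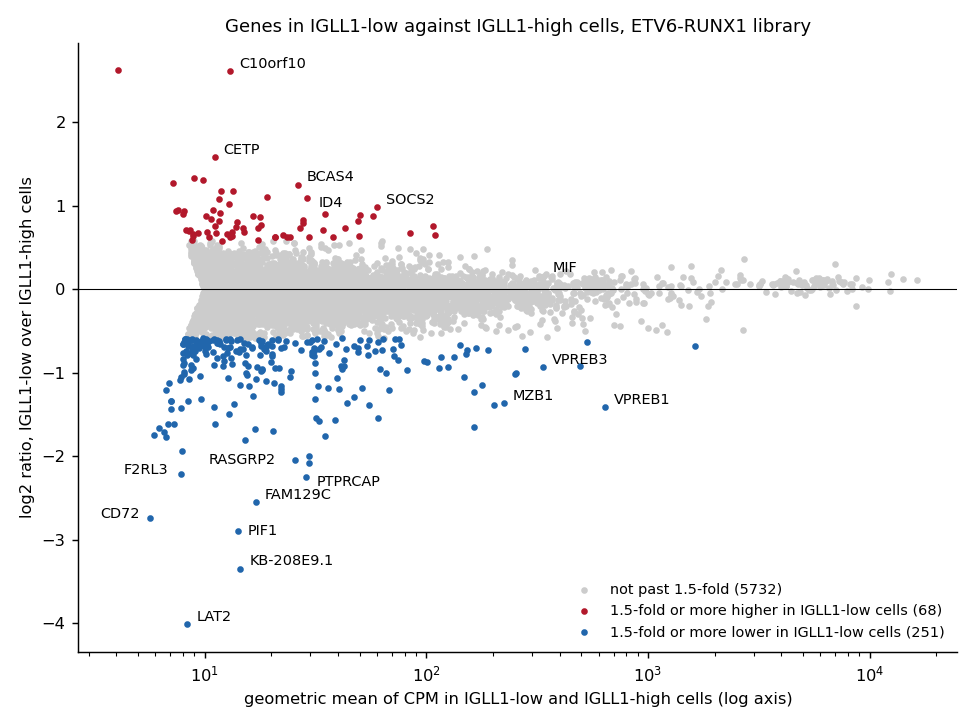
Log2 ratio of IGLL1-low over IGLL1-high cells (y axis) against the geometric mean of both CPM values (x axis, log scale) for 6051 measured genes of the ETV6-RUNX1 library, 68 higher in red and 251 lower in blue. LAT2 lies lowest at -4.01, and C10orf10 is among the highest at 2.61.

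VPREB1, the partner chain of IGLL1, was 2.66-fold lower in IGLL1-low cells, at 391 CPM against 1043 CPM in IGLL1-high cells (log2 ratio -1.41, -1.47 to -1.36). In the control the same classes had 616 and 1115 CPM (-0.86, -0.99 to -0.73). VPREB3, a VpreB-like gene of B-cell precursors, had 244 and 465 CPM in the ETV6-RUNX1 library (-0.93, -1.01 to -0.86) and 301 and 409.5 CPM in the control (-0.44, -0.63 to -0.26). Both genes were lower in IGLL1-low cells of both libraries, and the lowest of the 4 class levels was that of the IGLL1-low cells with the fusion.

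Loss of IGLL1 UMIs did not always come with loss of VPREB1. At 8700 UMIs per cell, 28.9% of IGLL1-low cells had no VPREB1 UMI, against 1.95% of IGLL1-high cells, while 4.44% of the 45 IGLL1-low control cells had none. Without thinning, 81.7% of IGLL1-low and 99.65% of IGLL1-high cells held a VPREB1 UMI. VPREB1 lay under 2 UMIs per 10000 in 190 of the 409 cells (46.5%) and at 10 or more in 37 of them (9.05%). Per cell, VPREB1 UMIs ran from 0 through a median of 4 to 59 in IGLL1-low cells and from 0 through 20 to 79 in IGLL1-high cells. Free RNA can add UMIs to droplets, and the cultures hold no second cell type that lacks these genes, so that background share was not measured.

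LAT2, PTPRCAP and CD72, from the list for pre-B cell receptor and proximal signalling, were among the lowest genes. LAT2 (NTAL), an adaptor phosphorylated after immune receptor engagement, was 16.1-fold lower, at 2.08 CPM (16 UMIs) in IGLL1-low and 33.5 CPM (408 UMIs) in IGLL1-high cells (log2 ratio -4.01, -4.83 to -3.30). In the control these classes had 31.2 and 63.3 CPM (-1.02, -1.64 to -0.46). At 8700 UMIs, 2.20% of IGLL1-low cells and 20.9% of IGLL1-high cells held a LAT2 UMI (3.18% and 38.1% unthinned), and 22.2% of IGLL1-low and 37.7% of IGLL1-high control cells did (35.6% and 64.6% unthinned). LAT2 was nearly undetected in IGLL1-low cells with the fusion and present in those of the control.

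PTPRCAP, which encodes a protein associated with the phosphatase CD45, was at 13.1 CPM in IGLL1-low and 62.1 CPM in IGLL1-high cells (-2.24, -2.56 to -1.94). Its control levels were 96.0 and 113 CPM (-0.24, -0.58 to 0.08). CD72, an inhibitory co-receptor of B cells, was at 2.21 CPM (17 UMIs) and 14.7 CPM (-2.74, -3.55 to -2.02), against 18.0 and 18.3 CPM in the control (-0.03, -0.88 to 0.71). Both control intervals hold 0. The CD72 log2 ratio was -4.01 in cells with at most 5% mitochondrial UMIs and at least 2000 genes. Neither a LAT2 nor a PTPRCAP UMI was found in 89.5% of IGLL1-low and 57.2% of IGLL1-high cells at 8700 UMIs, and in 46.7% of IGLL1-low and 32.8% of IGLL1-high control cells.

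Of the 25 listed members of pre-B cell receptor and proximal signalling, 17 were measured, 8 were lower and 1 was higher, with a median log2 ratio of -0.47. Over all measured genes 4.15% were lower and 1.12% higher, with a median of -0.06. LAT2, PTPRCAP and CD72, which are among the 8, are also on the list of genes chosen as lower in the whole ETV6-RUNX1 library. For them the count is no independent evidence. The other lower members were the kinase BLK (-0.92), the phosphatase PTPN6 (-0.92), the adaptor PIK3AP1 (-0.61), the amino acid transporter SLC7A5 (-0.60) and the tetraspanin CD81 (-0.60). The adaptor BLNK was the higher one, at 65.5 CPM in IGLL1-low and 37.2 CPM in IGLL1-high cells (0.81, 0.63 to 1.00), and the kinase BTK stood at 0.42. The signalling chains CD79A, at 108 and 150 CPM (-0.47), and CD79B, at 451 and 570 CPM (-0.34), did not reach 1.5-fold. Within cells called G1, CD79B had the opposite sign (0.40, 0.18 to 0.61) and CD79A was at -0.06 (-0.44 to 0.33). Within cells called S, CD79A was at -1.12 (-1.39 to -0.85), and within those called G2/M at -0.38 (-0.54 to -0.22). After thinning the CD79A ratio was -0.68, past 1.5-fold. With phases weighted equally CD79A was at -0.48 and CD79B at -0.12. The kinase SYK (-0.18) had a ratio nearer 0. With the 3 called cell-cycle phases given equal weight, 5 members were lower, 1 was higher and the median was -0.40.

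RASGRP2, RAC2 and FAM129C were lower in IGLL1-low cells of the ETV6-RUNX1 library, with ratios nearer 0 in the control. RASGRP2, an exchange factor for the GTPase Rap1, had 12.6 CPM in IGLL1-low and 52.1 CPM in IGLL1-high cells (-2.05, -2.37 to -1.74), against 90.0 and 90.7 CPM in the control (-0.01, -0.36 to 0.32). RAC2, a GTPase of blood cells, had 14.8 and 59.0 CPM (-1.995, -2.29 to -1.71), against 48.0 and 57.8 CPM in the control (-0.27, -0.76 to 0.18). FAM129C, a B-cell gene, had 7.01 and 41.1 CPM (-2.55, -2.98 to -2.14), against 40.8 and 59.6 CPM (-0.55, -1.08 to -0.06). The difference in these ratios between the libraries was not tested.

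The thrombin receptor gene F2RL3 stood at 3.64 CPM in IGLL1-low and 16.9 CPM in IGLL1-high cells (-2.21, -2.84 to -1.64), and 19.2 and 19.15 CPM in the control. The F2RL3 log2 ratio was -1.39 after thinning, -2.95 in cells of at least 15000 UMIs and -0.62 in cells called G1 (-2.14 to 1.08). IQSEC1, an exchange factor for Arf GTPases, had a log2 ratio of -1.94 (-2.54 to -1.39), SUN2, of the nuclear envelope, -1.74 (-2.42 to -1.12) and LCN6, a lipocalin gene, -1.77 (-2.41 to -1.18). LCN6 is a symbol held by more than 1 identifier, and the value is that of ENSG00000267206. The sialomucin gene SPN (CD43) had 19.1 and 56.8 CPM (-1.57, -1.84 to -1.31). MZB1, an endoplasmic reticulum chaperone of immunoglobulin assembly, had 140 and 360 CPM (-1.37, -1.46 to -1.27), and 314 and 359 CPM in the control (-0.19, -0.37 to -0.01). BCL2, an inhibitor of apoptosis, had 5.84 and 12.2 CPM (-1.07, -1.58 to -0.58), and the cell-cycle inhibitor gene CDKN2D 10.7 and 23.7 CPM (-1.15, -1.52 to -0.79). The control ratios were -1.88 for BCL2 (-4.17 to -0.32, 3 UMIs in IGLL1-low cells), -1.11 for CDKN2D (-2.18 to -0.22) and -0.64 for SPN (-1.22 to -0.11). Those of IQSEC1 (-0.51), SUN2 (-0.66) and LCN6 (-0.41) had intervals that hold 0.

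Genes listed because they were lower in the whole ETV6-RUNX1 library than in the control were also lower in its IGLL1-low than in its IGLL1-high cells: 9 of the 10 measured were at least 1.5-fold lower, with a median of -2.23. That list was chosen on these libraries and is no independent evidence of direction. Its other lower members were RASD1 (-1.61), N4BP3 (-1.38) and KB-208E9.1 (-3.35), and TFDP1, which did not reach the size, stood at -0.27. KB-208E9.1 adjoins IGLL1 in the gene order, so the pair may share reads and the value is uncertain. The list of 10 genes higher in the whole library, chosen in the same way, had 6 members higher and 1 lower in IGLL1-low cells, with a median of 0.64. Its lower member was NKAIN4 (-0.996).

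The genes followed IGLL1 gradually over 6 bins of its level (under 2, 2 to 5, 5 to 10, 10 to 15, 15 to 25 and 25 or more UMIs per 10000). In the ETV6-RUNX1 library LAT2 was at 2.08, 4.20, 11.2, 20.8, 28.6 and 41.4 CPM from the lowest bin to the highest, and in the control at 31.2, 29.05, 41.6, 51.8, 55.3 and 74.8 CPM. RASGRP2 was at 12.6, 16.9, 33.7, 39.6, 50.15 and 55.25 CPM with the fusion and between 81.5 and 91.6 CPM in every control bin. PTPRCAP was at 13.1 CPM in the lowest and 76.4 CPM in the highest bin with the fusion, and at 96.0 and 125 CPM in those of the control. At 25 or more IGLL1 UMIs per 10000, VPREB1 was at 1207 CPM in the ETV6-RUNX1 library and 1193 CPM in the control, while RASGRP2, LAT2 and PTPRCAP were still lower with the fusion.

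**Figure D3:**
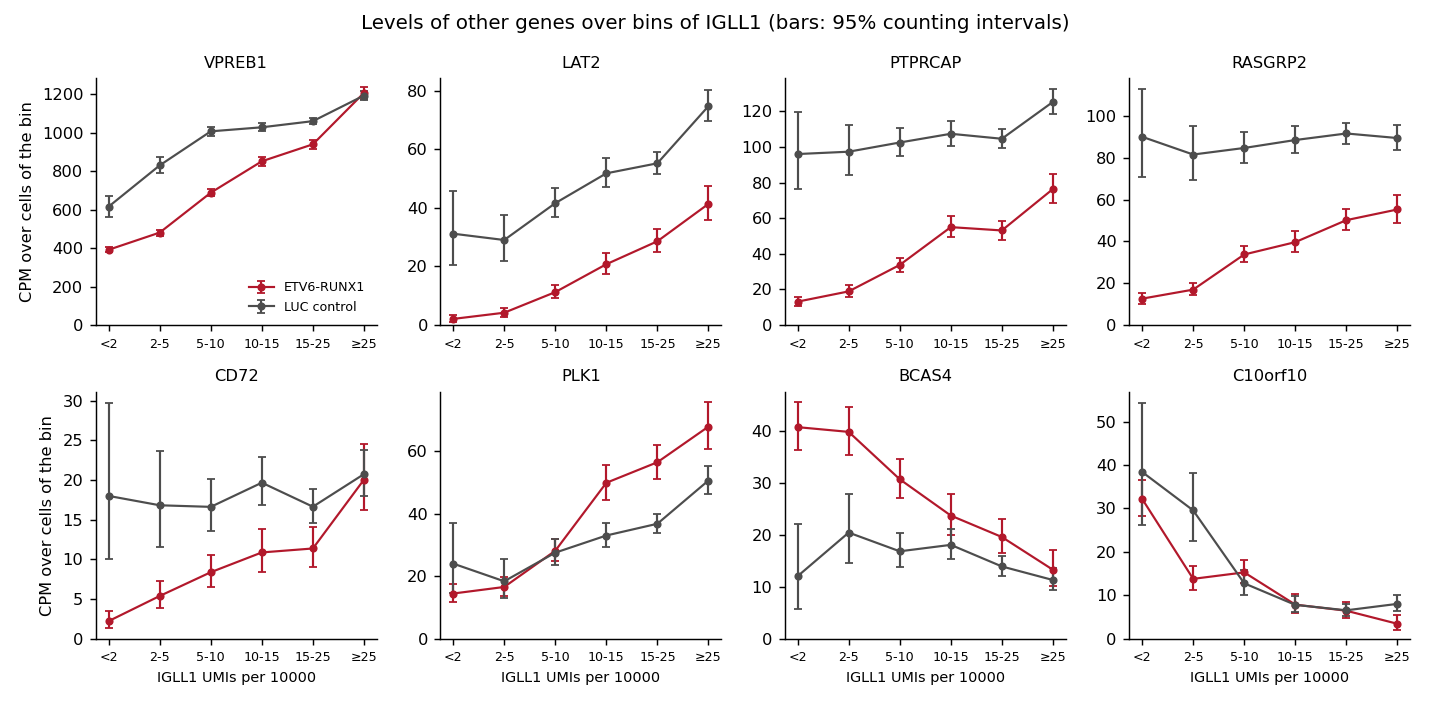
CPM summed over the cells of a bin (y axis, 95% counting intervals as bars) against bins of IGLL1 UMIs per 10000 (x axis) for 8 genes in the ETV6-RUNX1 library (red) and the LUC control (grey). RASGRP2 and CD72 climb with IGLL1 in the ETV6-RUNX1 library and stay within 81.5 to 91.6 CPM and 16.6 to 20.8 CPM in the control, BCAS4 declines with IGLL1 in the ETV6-RUNX1 library, and C10orf10 is highest in the lowest bin of both.

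Fewer genes were higher in IGLL1-low cells, and C10orf10 stood out among them in both libraries. C10orf10, an inducible gene downstream of FOXO factors, was at 32.2 CPM (248 UMIs in 104 of 409 cells) in IGLL1-low and 5.26 CPM in IGLL1-high cells (2.61, 2.21 to 3.03), and the control had 38.4 and 7.13 CPM (2.43, 1.84 to 2.98). The gene RP5-887A10.1 was at 10.1 and 1.64 CPM (2.62, 1.90 to 3.41), and no UMI of it was counted in the IGLL1-low control cells. BCAS4 was at 40.7 and 17.1 CPM (1.2495, 0.99 to 1.51), against 12.0 and 12.8 CPM in the control (-0.09, -1.17 to 0.81). CETP, a lipid transfer gene, was at 19.2 and 6.41 CPM (1.58, 1.18 to 2.00), and CD99, a surface antigen of precursor cells, at 16.9 and 7.97 CPM (1.08, 0.69 to 1.48). BCAS4, CETP and CD99 are also on the list chosen as higher in the whole library.

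MXI1 and MXD4, which compete with MYC for its partner MAX, had log2 ratios of 1.18 (0.80 to 1.58) and 1.18 (0.82 to 1.55), and of 1.29 and 0.58 with phases weighted equally, where MXD4 is short of 1.5-fold. They had 17.9 and 20.1 CPM in IGLL1-low and 7.89 and 8.88 CPM in IGLL1-high cells. In the control MXI1 was at 0.73 (-0.29 to 1.60) and MXD4 at 1.24 (0.43 to 1.95). HRK, a BH3-only activator of cell death, was at 14.3 and 5.67 CPM (1.33, 0.89 to 1.79), with 13.2 and 5.46 CPM in the control. KLHL24 (1.31), GCSAM, a signalling adaptor of germinal centre B cells (1.10), SOCS2, a feedback inhibitor of cytokine signalling (0.98), and TSACC (0.96) completed the group along with SPP1 (1.28). SPP1, the osteopontin gene, rests on few cells: 1 cell held 24.4% of its 86 UMIs in IGLL1-low cells, and without it the ratio was 0.88. SOCS2 was at 84.3 and 42.7 CPM in the ETV6-RUNX1 library and 84.0 and 50.1 CPM in the control. KLHL24 was at 1.32 in the control (0.54 to 2.02), while GCSAM (0.04), TSACC (0.47) and SPP1 (-0.75) had control intervals that hold 0.

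RAG2, a subunit of the recombinase that cuts antigen receptor genes, was at 18.4 CPM in IGLL1-low and 9.04 CPM in IGLL1-high cells (1.03, 0.66 to 1.40). Its partner RAG1 was at 30.8 and 21.0 CPM (0.55, 0.29 to 0.82), short of 1.5-fold. With phases weighted equally RAG1 passed 1.5-fold, at 0.95 (0.59 to 1.30), and RAG2 was at 1.38 (0.88 to 1.88). In the control RAG1 was at 0.94 (0.29 to 1.52) and RAG2 at 0.32 (-0.70 to 1.19). Of 12 measured genes of V(D)J recombination, 2 were higher (RAG2 and the damage kinase ATM at 0.59) and 0 were lower, with a median of 0.08, beside 1.12% higher and 4.15% lower over all measured genes. With phases weighted equally ATM was at 0.37 (-0.09 to 0.83). DNTT, which adds untemplated bases at joints, had 426 and 375 CPM (0.18), and the repair factors XRCC5 (0.04) and LIG4 (-0.10) lay near 0. The listed immunoglobulin heavy and light chain genes other than IGLL5 are not analysed here.

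Among 29 measured transcription factors of the B lineage, 1 was higher and 4 were lower, with a median of 0.14, beside 1.12% and 4.15% over all measured genes. With phases weighted equally, where the floor of 10 CPM is applied anew, 4 were counted higher and 1 lower. In that setting IKZF2 (-1.21, -1.88 to -0.55) and SPI1 (-1.04, -1.43 to -0.65) both still had ratios past 1.5-fold. ID4, an inhibitor of basic helix-loop-helix factors, was the higher one, at 42.6 and 19.9 CPM (1.10, 0.85 to 1.34) in the ETV6-RUNX1 library and 80.4 and 20.7 CPM in the control (1.958, 1.57 to 2.33). The lower ones were IKZF2 (-1.34), the ETS factor SPI1 (PU.1, -1.15), ID3 (-0.66) and CBFB, the partner of RUNX proteins (-0.63). The lineage factors EBF1 and PAX5 were close to 0 (0.08 and -0.03), while MYB (0.58), BACH2 (0.56) and FOXO1 (0.43) were higher by less than 1.5-fold. RUNX1 was at 30.7 and 35.2 CPM (-0.20, -0.43 to 0.03) and ETV6 at 9.09 and 9.95 CPM (-0.13, -0.58 to 0.31). Neither interval is clear of 0, the fusion has no entry of its own in the matrices, and UMIs from the construct and from the native genes cannot be told apart here.

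Surface antigens used to stage B-cell precursors had ratios on both sides of 0. Of 12 measured, CD99 was higher, and SPN and IL7R were lower, beside 1.12% higher and 4.15% lower over all measured genes. IL7R, the interleukin-7 receptor gene, was at 58.8 and 88.5 CPM (-0.59, -0.75 to -0.43). Its control ratio was -1.26 (-1.81 to -0.76). MME (CD10) was at 129 CPM in both classes, and CD38 (0.14), CD9 (0.12) and CD74 (0.03) had ratios near 0. The median was 0.12, beside -0.06 for all measured genes.

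Genes of mitosis were mostly lower in IGLL1-low cells. Of 49 measured genes of G2 and mitosis, 36 were lower in IGLL1-low cells and 0 were higher, with a median of -0.81. Over all measured genes, 4.15% were lower and 1.12% higher, with a median of -0.06. The phase calls were scored on the same lists, with 53 G2/M and 40 S-phase genes. The list result and the called phases are therefore not independent. The centromere histone gene CENPA was at 19.1 and 64.45 CPM (-1.76, -2.02 to -1.50) and FAM64A at 8.18 and 28.5 CPM (-1.80, -2.21 to -1.41). DLGAP5, a spindle protein gene, had a ratio of -1.70. Outside the list, the mitotic kinase gene PLK1 was at 14.4 and 60.8 CPM (-2.08, -2.38 to -1.79) and the helicase gene PIF1 at 5.20 and 38.6 CPM (-2.89, -3.40 to -2.43). PIF1 was at -2.08 and CENPA at -1.004 with phases weighted equally, and their intervals hold 0 in cells called G1 and S. The 36 measured S-phase genes gave 0 calls in either direction and a median of 0.08. Mitotic list members made up 36 of the 251 lower genes.

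Expression scores called 25.4% of IGLL1-low cells G1, 33.7% S and 40.8% G2/M, against 5.13%, 15.9% and 78.9% of IGLL1-high cells. In the control, 60% of the 45 IGLL1-low cells were called G1 and 26.7% G2/M, against 3.02% and 57.1% of IGLL1-high cells. Scores lay within 0.05 of the cut in 15.9% of IGLL1-low and 8.85% of IGLL1-high cells. Such calls read free RNA too, and no cycling is read from them. IGLL1-low cells were found in every called phase, making up 33.55% of ETV6-RUNX1 cells called G1, 23.8% of those called S and 14.5% of those called G2/M, against 17.5%, 0.786% and 1.38% in the control.

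With the 3 phases given equal weight, 118 genes were higher and 234 lower, of which 51 and 135 were among the 68 and 251. The G1 part of that setting rests on 104 IGLL1-low and only 29 IGLL1-high cells. All 68 higher genes kept a ratio above 0 in that setting, and 249 of the 251 lower genes one below 0. The mitotic list, which also made the phase calls, then had a median of -0.42, with 13 members lower. VPREB1 (-1.25), LAT2 (-4.16), CD72 (-2.51), FAM129C (-2.63), PTPRCAP (-2.15), RASGRP2 (-1.99) and RAC2 (-1.72) were all lower with equal weights, and C10orf10 (2.44), BCAS4 (0.94) and RAG2 (1.38) were higher. PLK1 was at -1.24, and its ratio was -1.60 within cells called G2/M but 0.38 in G1 and 0.40 in S, with intervals that hold 0. With equal weights SUN2 was at -1.02. Of the genes named here as higher or lower, MXD4, ATM, ID3, CBFB, PIK3AP1, CD81, SLC7A5, ICAM2, PFKL, MSMO1, BCR, CABIN1 and CRKL no longer reached 1.5-fold with equal weights. Within cells called G2/M alone, 100 genes were higher and 339 lower, 185 of them among the 251.

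**Figure D4:**
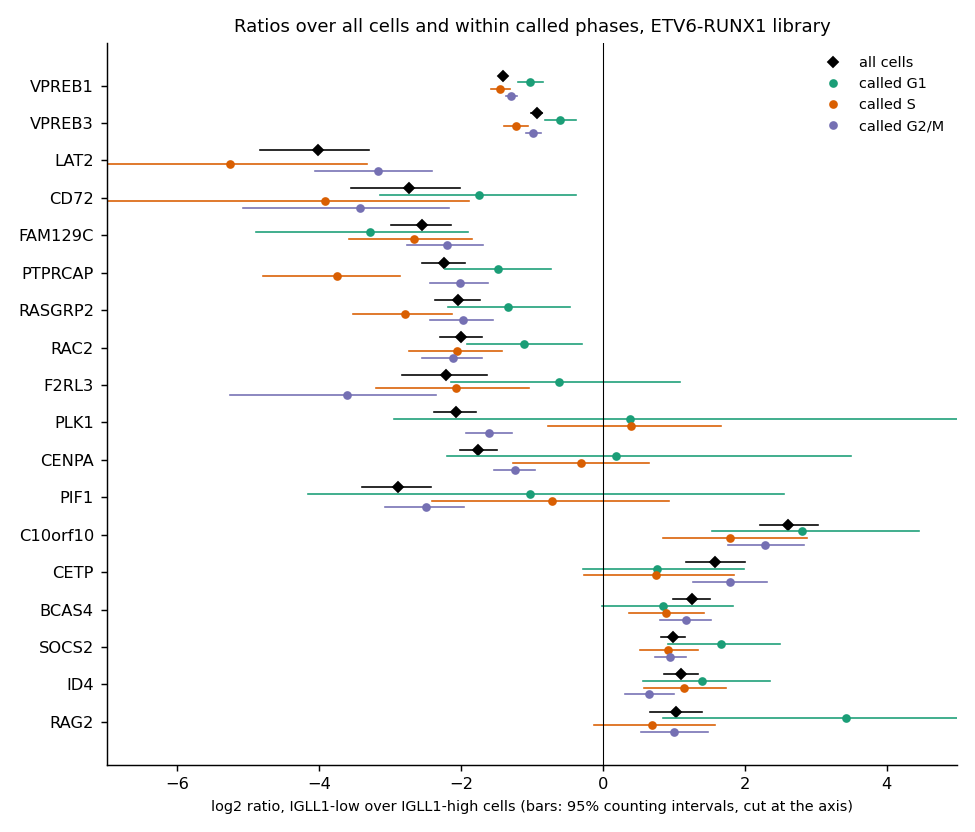
Log2 ratio of IGLL1-low over IGLL1-high cells (x axis, 95% counting intervals as lines) for 18 genes over all ETV6-RUNX1 cells (black) and within cells called G1, S and G2/M. VPREB1 and FAM129C lie below 0 and SOCS2 and ID4 above 0 in each called phase, PLK1 is below 0 in G2/M only, and LAT2 has no G1 point because no IGLL1-low cell called G1 held a LAT2 UMI.

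Other programmes showed small shifts, and their counts stand beside 4.15% lower and 1.12% higher over all measured genes. Among the 25 genes measured for the stress responses to unfolded protein, 0 reached 1.5-fold in either direction and 23 lay below 0, with a median of -0.20. Cholesterol synthesis had a median of -0.23 over 16 genes with 1 lower (MSMO1, -0.61), and 38 genes of MYC and ribosome biogenesis a median of -0.09 with 0 calls. The 10 measured p53 targets had a median of 0.25 and 0 calls, with the cell-cycle inhibitor CDKN1A at 54.3 and 37.1 CPM (0.55, 0.35 to 0.75). MHC class II had a median of -0.07 over 10 genes with 0 calls, and 9 interferon-stimulated genes one of -0.14 with 0 calls. In antigen processing 1 of 14 genes was lower, the immunoproteasome subunit PSMB8 at 82.7 and 159 CPM (-0.94, -1.08 to -0.81), while its partner PSMB9 stood at -0.34.

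The counts that follow stand beside 4.15% lower and 1.12% higher over all measured genes. Glycolysis and hypoxia had 2 of 18 genes lower, HK2 (-0.71) and PFKL (-0.68), and a median of 0.09. Adhesion and migration had 3 of 11 lower, RAC2, the integrin ITGA4 (-0.73) and ICAM2 (-0.69). The BCL2 family and apoptosis list had 2 of 13 lower, BCL2 and the mitotic BIRC5 (-1.05), and the G1 cyclins and inhibitors list 2 of 11, CDKN2D and E2F2 (-0.68). Of 17 immediate-early and heat shock genes 1 was lower, ZFP36 (-0.69). S100A4 (-1.003) was the 1 lower gene of 4 S100 genes.

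**Figure D5:**
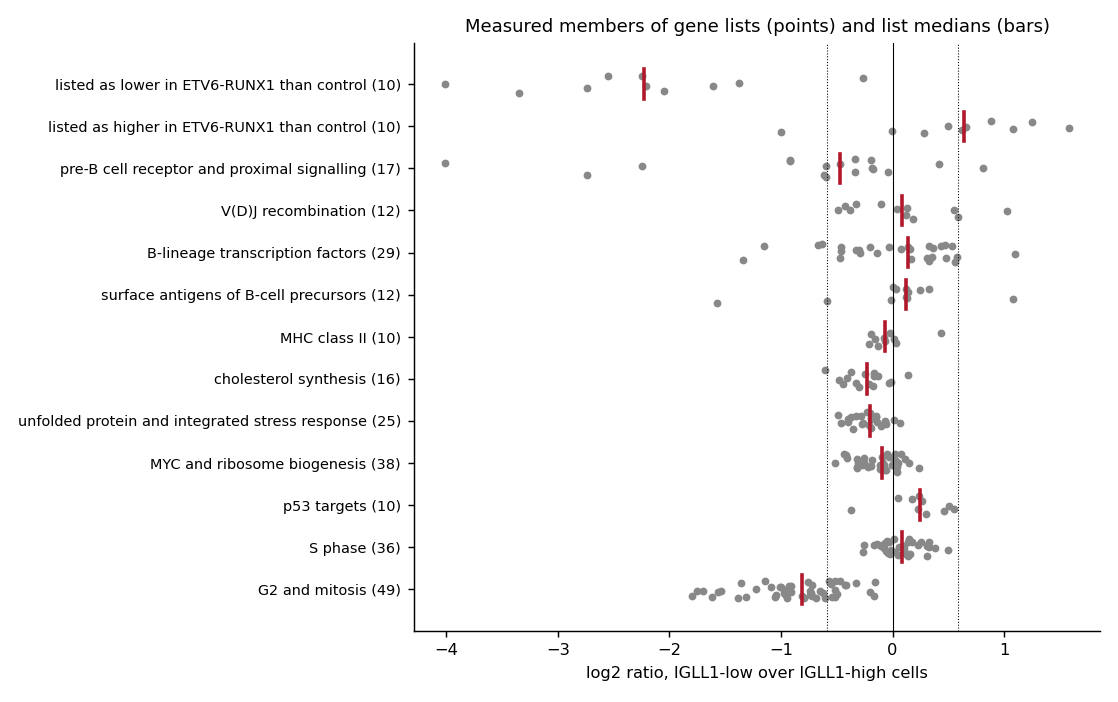
Log2 ratio of IGLL1-low over IGLL1-high cells (x axis) for each measured member (points) of 13 gene lists, number measured in brackets, with list medians as red bars and 1.5-fold as dotted lines. The list of genes lower in the whole ETV6-RUNX1 library (median -2.23, chosen on these libraries) and the mitotic list (-0.81) lie furthest to the left.

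IGLL1, VPREB1 and VPREB3 lie near each other on the long arm of chromosome 22, so their neighbours were measured. Of the nearest measured genes on either side of IGLL1, 29 in all without KB-208E9.1, 13 had ratios above 0 and the median was -0.12. UBE2L3, on the VPREB1 side, was at 325 and 316 CPM (0.04), and MIF, DDT and SNRPD3, on the VPREB3 side, had ratios of 0.10, 0.03 and 0.04. IGLL5, between VPREB1 and IGLL1, was at 0.06. Besides the surrogate light chain genes and KB-208E9.1, the lower neighbours were BCR (-0.89), CABIN1 (-0.64) and CRKL (-0.59), which with phases weighted equally were at -0.57, -0.44 and -0.40. Over 157 measured genes of chromosome 22 the median was -0.12, against -0.06 for all measured genes.

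Defining markers of T, NK, erythroid and granulocytic cells were at or near 0 in IGLL1-low cells. T and NK markers summed to 2.86 CPM in IGLL1-low and 7.23 CPM in IGLL1-high cells, with 7 of 9 at 0 in each class, CD3D, CD3E, CD3G and CD7 among them, and to 6.001 and 6.32 CPM in the control. Erythroid and megakaryocyte markers summed to 0.130 and 0.0822 CPM, with 9 of 10 at 0 in each class. Myeloid markers summed to 22.6 and 14.8 CPM, of which CST3 made up 14.3 and 7.97 CPM, with S100A8, S100A9 and CSF1R at 0. Stem and progenitor markers summed to 14.9 and 21.4 CPM, nearly all of it EGFL7. Epithelial and fibroblast markers summed to 78.5 and 63.5 CPM, of which PDGFRA was 78.3 and 63.2 CPM, and 146 and 55.0 CPM in the control. Mature B and plasma cell markers summed to 195 and 405 CPM, of which MZB1 made up 140 and 360 CPM, with CR2 and CCR7 at 0. The label of the cells as low in IGLL1 and VPREB1 held for the summed level of VPREB1, and not for each cell, as given above.

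IGLL1-low cells lay in all 5 clusters made from the other genes of the ETV6-RUNX1 library, with 17, 58, 62, 87 and 185 cells. They made up 4.61% (2.71 to 7.27), 18.7% (14.5 to 23.5), 13.6% (10.6 to 17.1), 44.4% (37.3 to 51.6) and 26.0% (22.8 to 29.4) of those clusters, in the same order. The cluster with 44.4% was mostly called G1 (72.5%), and the cluster with 4.61% was called G2/M in all of its 369 cells. VPREB1, LAT2, PTPRCAP and FAM129C had ratios below 0 in every cluster and BCAS4 and C10orf10 above 0. For PTPRCAP they ran from -2.61 to -0.75, with -0.75 in the cluster called G2/M throughout. The cells formed no cluster of their own, and no cluster was given a cell type name.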

How the data were processed

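Each deposited matrix gives UMI counts, not normalized, by gene and barcode, which the authors made with Cell Ranger 3.0.2 on hg19, per the submitters' processing notes. The sources used here do not give how reads of overlapping genes were counted. UMIs were summed over the cells of a class and scaled to CPM. A log2 ratio has an exact conditional binomial (Poisson ratio) 95% interval, which takes UMIs as independent and leaves out the spread between cells and cultures. Phases came from scanpy 1.11.5 cell-cycle scoring of cells thinned to 8700 UMIs, with the lists for S phase and for G2 and mitosis. Leiden clusters (resolution 0.5) used 2000 variable genes, 30 components and 15 neighbours, without IGLL1. Scrublet (expected rate 0.05) called 15 and 19 kept cells of the ETV6-RUNX1 and control libraries, and doublets were left in. GENCODE 29 gave gene order and chromosomes. The calculation was tested on simulated data.

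Named genes were the surrogate light chain genes, CD79A, CD79B, MIF, LAT2, ETV6 and RUNX1, the 15 highest and 15 lowest called genes, up to 3 members a list with the largest ratio, and the neighbours of IGLL1. Further list members are named with their values where they were called or chosen after their values were seen. The members and the 31 gene lists were chosen with earlier results of these data known. Fewer than 50 control cells lay below the cut, so genes were not counted there. Alternatives were other cuts, comparison cells, depths, weights, scalings, filters and phases.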

Additional observations from a re-analysis of the deposited data

Results flagged for a closer look

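For 10 of the named genes, IGLL1-low over IGLL1-high cells gave log2 ratios of opposite sign in the ETV6-RUNX1 library and the control, each with an interval clear of 0. These 10 are not a count over all measured genes. The difference between the libraries was not tested, and the control value rests on 45 IGLL1-low cells, 60% of them called G1 against 25.4% in the ETV6-RUNX1 library. The receptor signalling chain CD79A was at -0.47 in the ETV6-RUNX1 library and 0.60 in the control, and CD79B at -0.34 and 0.28. The interferon-induced BST2 was at -0.47 and 0.93, S100A13 at -0.32 and 0.88, S100A16 at -0.275 and 0.487, RCL1 at -0.52 and 0.765, and EGFL7 at -0.55 and 0.80. Of the genes higher in the ETV6-RUNX1 library and lower in the control, the kinase gene ATM was at 0.59 and -1.43, the base-excision repair gene UNG at 0.50 and -0.62, and the replication gene GINS2 at 0.38 and -1.22. Within ETV6-RUNX1 cells called G1 (104 IGLL1-low and 29 IGLL1-high), CD79B (0.40), BST2 (0.60), S100A13 (0.37), RCL1 (0.47), UNG (-1.28) and GINS2 (-0.59) had the sign of the control. Intervals hold 0 for S100A13, RCL1 and GINS2. The others kept the ETV6-RUNX1 sign there: EGFL7 at -2.42 (-3.41 to -1.49), S100A16 at -0.21, ATM at 0.31 and CD79A at -0.06. Of these, only the EGFL7 interval is clear of 0. Whether called phase accounts for the opposite signs was not tested. With phases weighted equally CD79B was at -0.12. UNG and GINS2 are on the S-phase list that scored the phases. Of IGLL1-low cells, 33.7% were called S in the ETV6-RUNX1 library against 13.3% in the control.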

How the results depend on the processing

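The share of IGLL1-low cells in the ETV6-RUNX1 library and the control was 11.7% and 1.12% with a cut of 1 UMI per 10000, 26.7% and 4.03% with 3, 17.8% and 1.66% in cells of at least 15000 UMIs, and 33.55% and 17.5%, 23.8% and 0.786%, and 14.5% and 1.38% in cells called G1, S and G2/M. Higher and lower genes numbered 113 and 343 with members below 1 UMI per 10000, 29 and 88 against all other cells, 128 and 335 after thinning, 258 and 545 with a floor of 1 CPM, 9 and 68 with a floor of 50, 237 and 733 with a size of 0.32 on the log2 scale, 13 and 74 at 2-fold, and 118 and 234 with phases weighted equally. Within phases, chosen after seeing the data, they were 186 and 323 (G1), 125 and 209 (S) and 100 and 339 (G2/M). Scaling changed the split of 68 and 251 to 88 and 201 with TMM, 85 and 202 with median of ratios and 94 and 190 without ribosomal protein and mitochondrial genes. The causes were not tested.

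Among genes called higher or lower, ratios changed sign within a phase for PLK1 (0.38 in G1, 0.40 in S), CENPA (0.19 in G1), SPP1 (-1.53 in S), HK2 (0.35 in S), PFKL (0.16 in G1) and MSMO1 (3.03 in G1), with intervals clear of 0 for SPP1 and MSMO1. The G1 ratios rest on 104 IGLL1-low and only 29 IGLL1-high cells, and the MSMO1 interval is wide (0.42 to 8.39). Among named genes without a call, CD79B (0.40), BST2 (0.60), HLA-DPB1 (0.45), TFDP1 (2.78, 0.14 to 8.15) and UNG (-1.28) had the opposite sign in G1 with intervals clear of 0. After thinning, the MXD4 log2 ratio was 1.87 and the SPP1 log2 ratio 1.91. With members below 1 UMI per 10000, the IQSEC1 log2 ratio was -2.60 and the KB-208E9.1 log2 ratio -4.47. Over 106 named genes and all settings, 1516 values stayed within the interval of the reported ratio, 276 left it, which includes sign changes of genes without a call, and 7 are the sign changes of called genes. No paired analysis was possible because each construct has 1 library. Depth limits LAT2, with 16 UMIs in IGLL1-low cells, and every control ratio, with 833178 UMIs in the 45 cells.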
